A study of Mus musculus with 8 samples.

Results

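The genes described here encode the ion transporters and carbonic anhydrases from which cerebrospinal fluid secretion is built, measured in fourth-ventricle choroid plexus taken from mice at embryonic day 13. A gene was a member where its only symbol in the array annotation starts with Atp1a, Atp1b, Slc12a, Slc4a, Slc9a, Slc26a or Car followed directly by a digit. This gave 58 of 18193 measured genes: 5 of the sodium pump (Atp1), 8 cation-chloride cotransporters (Slc12a), 10 named as bicarbonate transporters (Slc4a), 9 named as sodium-proton exchangers (Slc9a), 10 anion exchangers and channels (Slc26a) and 16 carbonic anhydrases (Car). Matching by letters also brought in 3 genes that belong to these families by symbol only, the scaffold genes Slc9a3r1 and Slc9a3r2 and Slc4a1ap. Each gene was read from its brightest probe set, and the 58 members had 120 probe sets in all.

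The series compared 4 arrays labelled Otx2 k.o. with 4 labelled wildtype, and its question was how the choroid plexus differs without Otx2, which encodes a DNA-binding homeodomain protein that this tissue expresses. All embryos had a mixed strain background, received no treatment and came from shared litters, and their sex was not determined. The knockouts came from a published Otx2-deficient strain. The labels name no Cre line, promoter or induction time, and they do not say how many embryos made a sample.

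The epithelium of the choroid plexus moves sodium, chloride and bicarbonate from blood to ventricle, and water follows. Its sodium pump sits on the membrane that faces the ventricle, which is the reverse of most epithelia, and it shares that membrane with the sodium-potassium-chloride cotransporter. Carbonic anhydrases make bicarbonate from carbon dioxide inside the cells and at their surface, and sodium-bicarbonate transporters and anion exchangers carry it across the membranes on either side.

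Array medians lay between 5.85 and 5.90 log2 units. Otx2 itself read 12.44 ± 0.04 in the arrays labelled knockout and 11.97 ± 0.09 in wildtype (log2 units, SD, n = 4 each), which is higher by 0.47. No source used here places its probes relative to the deleted part, and the text therefore speaks of knockout-labelled arrays. Markers of the choroid plexus epithelium were lower in 5 of 6 measured members and higher in 0, and their mean log2 level ran from 10.63 to 10.89 over the knockout-labelled arrays against 11.55 to 11.70 in wildtype. The member that did not pass was Ttr, the thyroid hormone carrier transthyretin, with a log2 change of -0.05. It read 14.17 against 14.21 and had the highest mean level of all genes. Whether its signal lay at the ceiling of the array was not tested, so a lack of change cannot be read from it. Stroma markers were higher in 7 of 7 and macrophage markers in 6 of 7, with mean levels of 11.66 to 12.00 against 11.16 to 11.28 for the stroma and 9.15 to 9.60 against 8.44 to 8.69 for macrophages. Erythroid markers were lower in 1 of 8, endothelial markers lower in 3 of 7 and higher in 1, neuron markers called in 0 of 8 (limma, also 0 at an unadjusted p under 0.05) and glia and neural progenitor markers higher in 2 of 6. In whole tissue, fewer epithelial cells and less RNA per epithelial cell cannot be told apart, and the part of these shifts in the results below was not tested.

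Of the 58 members, 13 fell and 3 rose in the knockout-labelled arrays, and 42 did not pass. The count of rises was unsteady, at 1 without wildtype replicate 2 or wildtype replicate 3 and 6 with array weights. A gene was called where its adjusted p was under 0.05 in a limma fit over all 18193 genes. The 16 called are 27.6% of members, against 19.6% of all genes. The members were chosen with earlier results of these data known, so these shares are descriptive. By direction, 22.4% of members were called lower where 11.7% of all genes were, and 5.17% were called higher where 7.84% of all genes were. At least a fold change of 2 downward was reached by 5 members (8.62%), against 1.16% of all genes. The median log2 change was -0.03 over the members and 0.000493 over all genes, so the middle member lay near the middle gene of the array. The arrays of the groups did not overlap in 13 members on the low side, against 14.4% of all genes, and in 6 on the high side, against 9.98%.

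**Figure D1:**
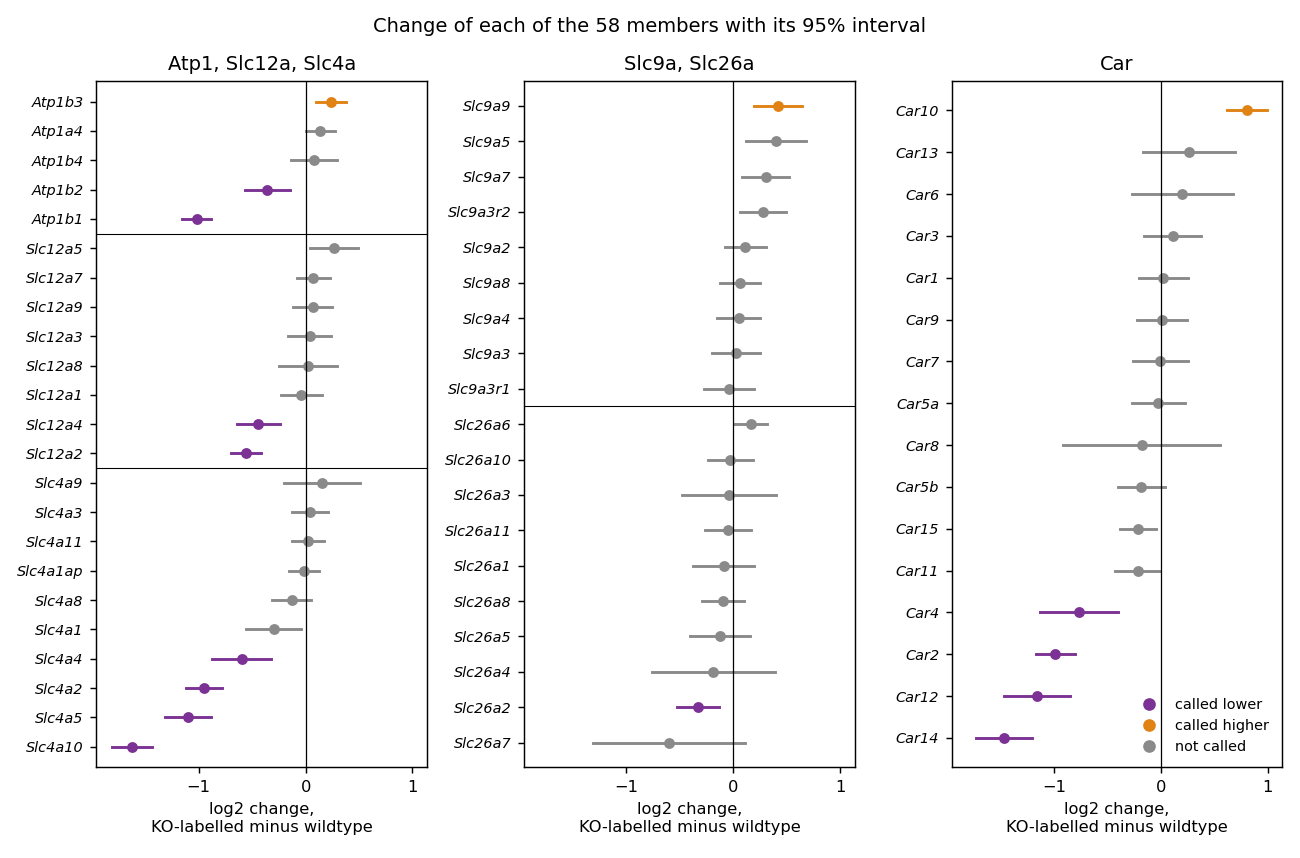
Log2 change of each of the 58 members (points, knockout-labelled minus wildtype, n = 4 arrays each) with its unadjusted 95% interval from limma, in 3 panels by gene family, coloured by the call after adjustment. The falls reach -1.63 for Slc4a10 and -1.47 for Car14, and the largest rise is that of Car10 at 0.81.

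All but 1 of the falls were among the brighter members. Of 21 members whose mean level over all arrays was above the median gene level of 7.29 log2 units, 12 fell and 2 rose, while 16.8% of all genes above that level were called lower and 11.5% higher. Of the 37 members at or below it, 1 fell and 1 rose, and of all genes there 10.8% were called in either direction. Many of the dim genes are forms known from kidney, gut or muscle, such as Slc12a1 and Slc12a3, the cotransporters of the kidney tubule, at 3.11 and 3.98 over all arrays. The deposited values hold no detection calls, so a low level cannot be told from background.

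**Figure D2:**
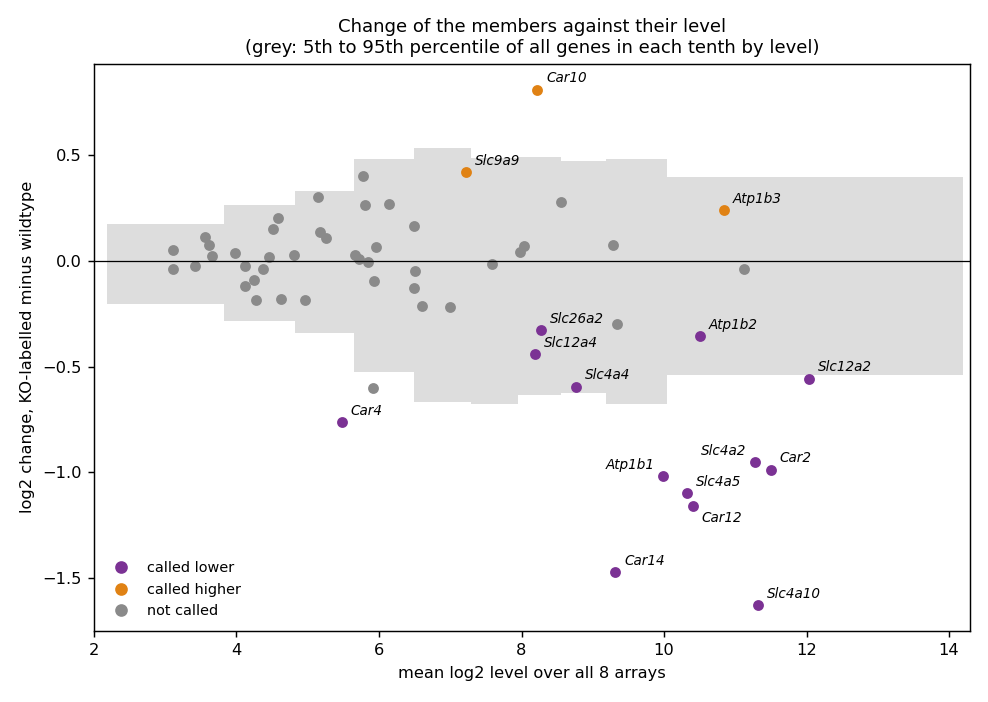
Log2 change of each member against its mean log2 level over all 8 arrays, with the 5th to 95th percentile of all genes in each decile of level in grey. Slc4a10, Car14, Car12, Slc4a5, Atp1b1, Car2, Slc4a2, Car4, Slc12a2 and the uncalled Slc26a7 lie below the grey band, and Car10 lies above it.

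The sodium pump is an enzyme of a catalytic alpha and a beta subunit, the latter needed to bring the pump to the membrane. Of its 4 measured beta subunits 2 fell, 1 rose by a small step that several settings did not call, and 1 did not pass. Over all genes, 11.7% were called lower and 7.84% higher. With 4 genes, these counts are no result about the subunits as a set. Atp1b1, the beta subunit of most epithelia, read 9.38, 9.58, 9.48 and 9.49 log2 units in knockout-labelled replicates 1 to 4 and 10.53, 10.46, 10.49 and 10.52 in the wildtype arrays. The groups were a full unit apart with little spread in either. The fall was 2.03-fold, a log2 change of -1.02 with an SE of 0.06 (limma, adjusted p = 9.96e-06). The call ended where probe sets with suffixes for sequence shared between transcripts or genes were left out. Only a dim probe set of the gene then remained (-0.12, adjusted p = 0.536). Atp1b2, a beta subunit known best from glia, read 10.08, 10.39, 10.49 and 10.34 against 10.61, 10.76, 10.60 and 10.76, lower by 1.28-fold (log2 change -0.36, adjusted p = 0.0237). The gap between its groups was narrow, and the call was lost when knockout-labelled replicate 4 (adjusted p = 0.0506), wildtype replicate 2 (0.0710) or wildtype replicate 4 (0.0695) was dropped.

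Atp1b3, the third beta subunit, which many tissues carry, was higher. It read 10.91, 10.93, 11.001 and 10.99 in the knockout-labelled arrays and 10.83, 10.67, 10.73 and 10.65 in wildtype, a rise of 0.24 with an SE of 0.06 (adjusted p = 0.0245). The groups did not overlap, but the rise was small. Its call was lost with the replicate number as a block (adjusted p = 0.0503) and on dropping any of 5 arrays: knockout-labelled replicate 3 (0.0614) or 4 (0.0630), or replicate 2 (0.0774), 3 (0.0545) or 4 (0.0742) of the wildtype. Within each array, the log2 value of Atp1b1 minus that of Atp1b3 was -1.53, -1.35, -1.52 and -1.50 in the knockout-labelled arrays and -0.30, -0.21, -0.25 and -0.12 in wildtype, so the difference between the pair moved by -1.26. Probe sets differ in brightness, so this gives the unequal change of the subunits and not their proportion, and the pair was picked after its values were seen. Atp1b4, a muscle form, and Atp1a4, an alpha subunit known from sperm, were dim at 3.61 and 5.17 over all arrays and did not pass. Other alpha subunits are not analysed here.

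Of the 8 cation-chloride cotransporter genes 2 fell and 0 rose (limma, 1 higher at an unadjusted p under 0.05), against 11.7% and 7.84% of all genes. With 8 genes, the lack of rises is near that share. Slc12a2, the sodium-potassium-chloride cotransporter NKCC1, read 11.70, 11.72, 11.81 and 11.76 in the knockout-labelled arrays and 12.38, 12.38, 12.24 and 12.23 in wildtype. All arrays of a group lay close together, and the fall was 1.47-fold (log2 change -0.56, SE 0.06, adjusted p = 0.000267). Slc12a4, the potassium-chloride cotransporter KCC1, read 7.80, 7.93, 8.14 and 8.02 against 8.24, 8.47, 8.40 and 8.52, a log2 change of -0.44 (SE 0.09, adjusted p = 0.00754). Slc12a7, the cotransporter KCC4, ran from 9.21 to 9.42 against 9.13 to 9.30, with overlapping groups, a change of 0.07 and an interval of -0.08 to 0.23 (adjusted p = 0.549). Slc12a2 minus Slc12a7 within arrays, picked after the values were seen, was 2.34 to 2.52 in the knockout-labelled arrays and 2.94 to 3.11 in wildtype.

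The other 5 cotransporter genes did not pass. Slc12a5, the neuronal potassium-chloride cotransporter KCC2, was at 6.28 ± 0.14 against 6.01 ± 0.17 (SD, n = 4 each), a change of 0.27 (limma, adjusted p = 0.0940), and it passed where its pair of probe sets were averaged (0.26, adjusted p = 0.0109). Neuron markers had a median change of 0.30 in the same arrays, with 0 of 8 called in limma. Their mean level varied widely, from 7.44 to 8.96 in the knockout-labelled arrays against 7.16 to 8.82 in wildtype. The part of neurons in the change of Slc12a5 was not tested. Slc12a9 changed by 0.07, and Slc12a8 at 4.46 against 4.44.

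Bicarbonate transport held the largest fall of all members. Of 10 genes with a Slc4a symbol 4 fell and 0 rose (limma, also 0 higher at an unadjusted p under 0.05), against 11.7% and 7.84% of all genes. With 10 genes, the lack of rises is near that share. The median change was -0.21. Slc4a10, the sodium-driven bicarbonate transporter of the membrane facing the blood, read 10.27, 10.56, 10.63 and 10.57 in the knockout-labelled arrays and 12.14, 12.18, 12.16 and 12.08 in wildtype. It fell 3.09-fold, with a log2 change of -1.63, an interval of -1.82 to -1.44 and an adjusted p of 4.89e-06 in limma. Slc4a5, the electrogenic sodium-bicarbonate cotransporter NBCe2 of the membrane facing the ventricle, read 9.50, 9.95, 9.79 and 9.83 against 10.83, 10.98, 10.80 and 10.86. That fall was 2.14-fold (log2 change -1.10, SE 0.10, adjusted p = 6.64e-05).

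Slc4a2, the chloride-bicarbonate exchanger AE2, read 10.62, 10.88, 10.90 and 10.81 against 11.77, 11.82, 11.71 and 11.71, lower by 1.93-fold (log2 change -0.95, SE 0.07, adjusted p = 3.74e-05). It is the exchanger through which chloride enters the epithelium from the blood side. Slc4a4, the cotransporter NBCe1 of kidney, pancreas and glia, read 8.24, 8.21, 8.77 and 8.65 against 9.05, 9.05, 9.07 and 9.08 (log2 change -0.60, adjusted p = 0.00809). Its wildtype arrays stood between 9.05 and 9.08 while the knockout-labelled ones split into a lower pair, replicates 1 and 2, and a higher pair. The change within arrays of Slc4a10 minus Slc12a2, a pair picked after the values were seen, was -1.07, from -0.08 to -0.24 in wildtype to -1.16 to -1.44 in the knockout-labelled arrays.

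Slc4a1, the band 3 anion exchanger of red cells, read 9.44, 9.33, 9.09 and 8.93 against 9.55, 9.60, 9.51 and 9.32. Its groups overlapped, and it did not pass (log2 change -0.30, adjusted p = 0.106), though it did with the replicate number as a block (adjusted p = 0.0323). The erythroid markers had a median change of -0.14 and mean levels of 8.31 to 8.73 against 8.59 to 8.75. Slc4a8, a sodium-driven chloride-bicarbonate exchanger of neurons, gave different answers by probe set: the brightest changed by -0.13 and did not pass, while a probe set at 6.38 over all arrays changed by -0.52 (adjusted p = 0.0143 over all probe sets) and another at 4.95 by -0.43 (adjusted p = 0.0181). Averaged, they gave -0.22 (adjusted p = 0.0176). Slc4a3, the exchanger AE3 of heart and brain, changed by 0.04, Slc4a11 by 0.03, Slc4a9 by 0.15 and Slc4a1ap by -0.01, with intervals that all span zero.

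**Figure D3:**
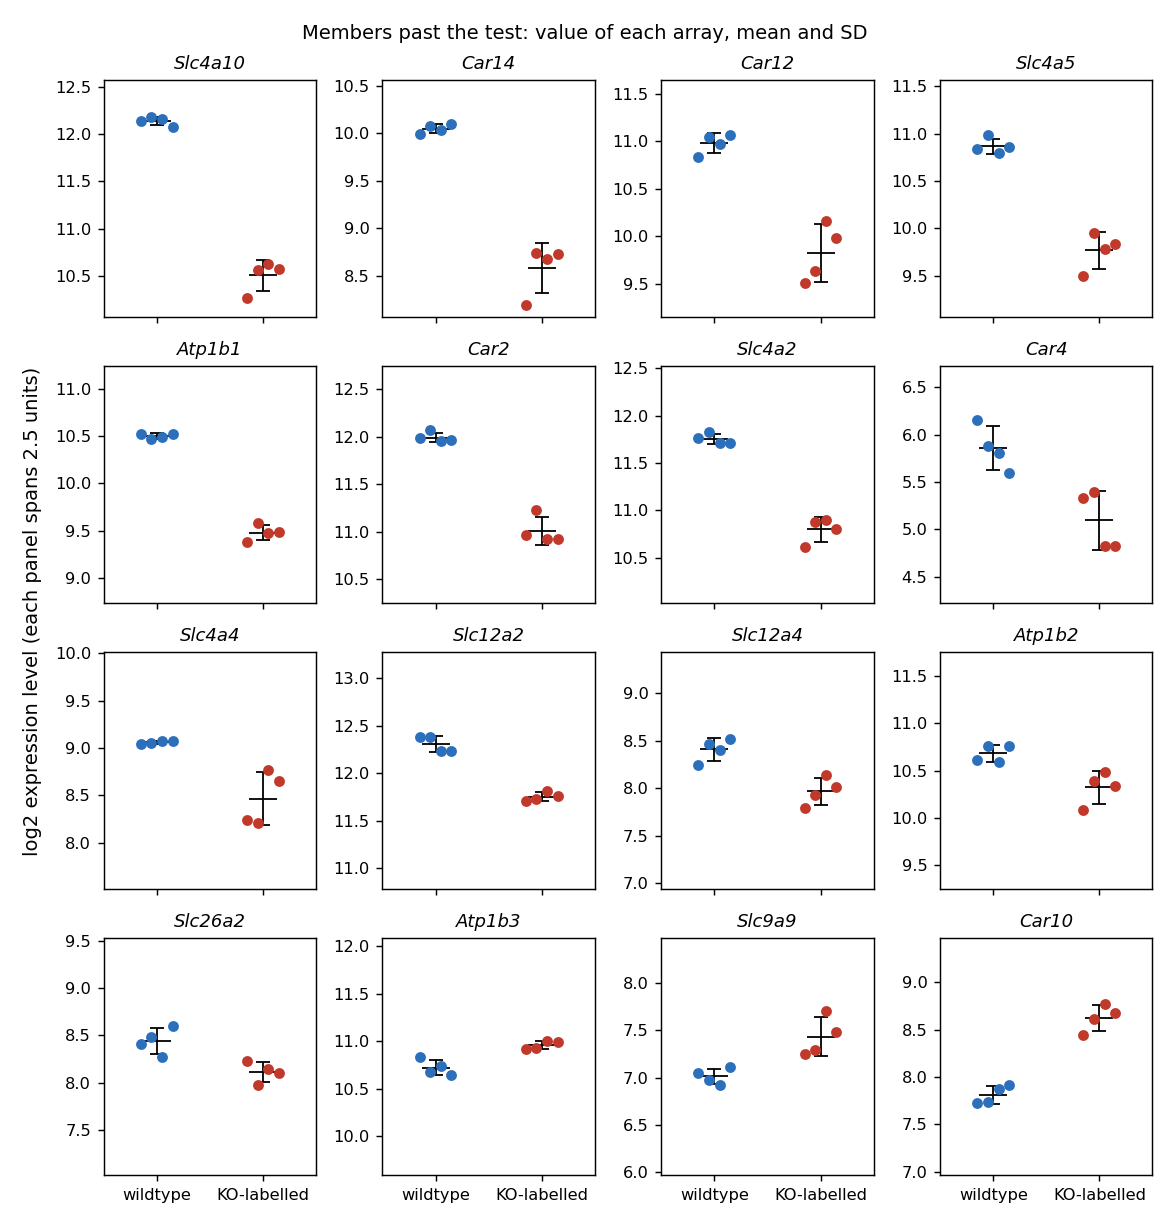
Log2 level of each array for the 16 members past the test, ordered by their change, with wildtype arrays in blue, knockout-labelled arrays in red and a black bar for the mean and SD (n = 4 each). Each panel spans 2.5 log2 units, and in all 16 panels the groups do not overlap.

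Among the carbonic anhydrases, 4 of 16 measured genes fell and 1 rose in limma, against 11.7% and 7.84% of all genes. The 4 that fell encode active enzymes, 3 at the cell surface and 1 in the cytosol. Most of the 16 encode active enzymes, so this does not set the fallen ones apart. Car14, a membrane-bound enzyme with its active site outside the cell, read 8.19, 8.73, 8.68 and 8.72 in the knockout-labelled arrays and 9.99, 10.07, 10.04 and 10.10 in wildtype. It fell 2.77-fold, a log2 change of -1.47 with an SE of 0.12 (adjusted p = 3.82e-05). Car12, another membrane enzyme facing outward, read 9.51, 9.63, 10.16 and 9.98 against 10.83, 11.05, 10.97 and 11.06, lower by 2.23-fold (log2 change -1.16, SE 0.14, adjusted p = 0.000356). As with Slc4a4, replicates 1 and 2 of the knockout-labelled group lay under replicates 3 and 4.

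Car2, the fast enzyme of the cytosol, which red cells and glia also hold, read 10.96, 11.22, 10.92 and 10.92 against 11.98, 12.07, 11.95 and 11.97. Its fall was 1.98-fold (log2 change -0.99, SE 0.08, adjusted p = 4.03e-05). Car4, an enzyme tethered to the outer surface by a lipid anchor, was dim, at 5.34, 5.39, 4.82 and 4.83 against 6.15, 5.88, 5.80 and 5.60, and was lower by 1.70-fold (log2 change -0.76, SE 0.16, adjusted p = 0.00935). Its second probe set changed by -0.24 and did not pass.

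Car10 moved against the others. It encodes a carbonic anhydrase-related protein without enzyme activity, made mainly by neural cells. It read 8.44, 8.61, 8.77 and 8.67 in the knockout-labelled arrays and 7.72, 7.74, 7.88 and 7.91 in wildtype, a 1.75-fold rise (log2 change 0.81, SE 0.08, adjusted p = 0.000162). A dimmer probe set of Car10 rose less, by 0.24, and did not pass. Among the neuron markers, none of which passed (0 at an unadjusted p under 0.05 in limma), 1 had a negative change, and their mean level ran from 7.44 to 8.96 in the knockout-labelled arrays against 7.16 to 8.82 in wildtype. Glia and neural progenitor markers, all 6 of which had positive changes with a median of 0.41, were called higher in 2, Nes and Slc1a3, and 5 were higher at an unadjusted p under 0.05. Their mean level ran from 9.45 to 9.83 against 9.08 to 9.54, and the part of neural cells in the rise was not tested.

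The related inactive proteins Car11 and Car8 changed by -0.22 (adjusted p = 0.146) and -0.18 (adjusted p = 0.778, interval -0.91 to 0.55). Car15 changed by -0.21 (adjusted p = 0.0803), and with the replicate number as a block it passed (adjusted p = 0.0399). Car1, the other red cell enzyme, was at 3.66 against 3.64, and the mitochondrial Car5a and Car5b, the secreted Car6, the hypoxia-induced Car9 and the muscle enzyme Car3 also had overlapping groups, with changes from -0.18 to 0.20. The cytosolic Car7 and Car13 changed by -0.01 and 0.26 without passing.

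The 3 members with the largest fall are Slc4a10, Car14 and Car12, and their start-site regions are shown because these genes fell together in arrays labelled as lacking a DNA-binding factor. Each window runs from 250 bases before to 50 bases after the gene's start and comes from RefSeq, build GRCm38.p6. Capitals mark 3 motifs searched on both strands: TAATCC, the core that Otx proteins bind, TATAAA, the TATA box, and GGGCGG, the GC box. The windows lie at chr2:62046265-62046564 on the plus strand for Slc4a10, at chr3:95904636-95904935 on the minus strand for Car14, and at chr9:66713436-66713735 on the plus strand for Car12. Where a gene had several windows, the one holding the most motifs was taken, then the one furthest upstream. This choice favours windows with a marked motif.
Slc4a10: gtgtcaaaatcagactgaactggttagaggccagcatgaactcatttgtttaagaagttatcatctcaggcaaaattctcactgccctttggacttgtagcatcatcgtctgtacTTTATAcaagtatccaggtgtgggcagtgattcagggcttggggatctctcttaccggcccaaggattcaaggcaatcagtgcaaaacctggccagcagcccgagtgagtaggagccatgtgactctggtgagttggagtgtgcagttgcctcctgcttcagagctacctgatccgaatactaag
Car14: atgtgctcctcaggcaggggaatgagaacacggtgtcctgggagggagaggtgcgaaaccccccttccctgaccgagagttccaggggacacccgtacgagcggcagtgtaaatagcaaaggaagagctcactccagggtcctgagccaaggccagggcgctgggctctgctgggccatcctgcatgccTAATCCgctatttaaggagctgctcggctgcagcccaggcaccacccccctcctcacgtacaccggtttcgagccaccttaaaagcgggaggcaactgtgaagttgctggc
Car12: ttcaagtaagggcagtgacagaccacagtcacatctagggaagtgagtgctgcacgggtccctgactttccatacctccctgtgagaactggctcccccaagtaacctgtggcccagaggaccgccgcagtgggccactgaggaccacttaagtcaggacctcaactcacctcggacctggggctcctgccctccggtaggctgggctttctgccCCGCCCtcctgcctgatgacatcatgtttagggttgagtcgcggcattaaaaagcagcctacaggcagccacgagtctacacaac
The capitals in Car14 are TAATCC, 61 bases before the start. Those in Car12 are the GC box read on the other strand, 35 bases before the start, and those in Slc4a10 are TATAAA on the other strand, 135 bases before it.

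Promoter windows were matched for 43 of the 58 members and for 9 of the 13 that fell. TAATCC stood in 1 of 12 windows of members that fell (Car14), in 0 of 5 of those that rose, in 4 of 40 of those not called and in 7.06% of all 32851 windows. TATAAA stood in 3 of 12, 0 of 5 and 5 of 40, against 13.6% of all windows, and GGGCGG in 5 of 12, 3 of 5 and 21 of 40, against 35.7%. With TAATCC, the members not called were Car5b, Slc12a1, Slc26a1 and Slc9a3. The median G and C content was 61.2% in windows of members that fell, 67.7% in those of members that rose, 60.5% in those of members not called and 52.7% in all windows, so it did not set apart the members that fell. A match is a description of letters near a start, and sites further away were not examined.

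Of the 9 genes with a Slc9a symbol, sodium-proton exchangers and the scaffold genes, 0 fell and 1 rose in limma (0 lower and 4 higher at an unadjusted p under 0.05), against 11.7% and 7.84% of all genes. The median change was 0.11. Slc9a9, the exchanger NHE9 of endosomes, read 7.25, 7.29, 7.71 and 7.48 in the knockout-labelled arrays and 7.04, 6.97, 6.93 and 7.11 in wildtype, higher by 0.42 (SE 0.10, adjusted p = 0.0176). Its call was lost without wildtype replicate 2 (adjusted p = 0.0509) or 3 (0.0554) and with the mean of its 4 probe sets (0.13, adjusted p = 0.199), the other 3 of which were dim.

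Several of the other exchangers stood near the threshold. Slc9a5, a form of the nervous system, was at 5.98 ± 0.23 against 5.58 ± 0.17 (SD, n = 4 each), a change of 0.40 with a limma adjusted p of 0.0501, and 0.0113 with the replicate number as a block. Slc9a7, the exchanger NHE7 of the Golgi, changed by 0.30 (adjusted p = 0.0552), and the scaffold gene Slc9a3r2 by 0.28 (adjusted p = 0.0780, and 0.0314 with the replicate number as a block). Without knockout-labelled replicate 2, Slc9a5 passed (0.50, adjusted p = 0.0123), and so did Slc9a7 without knockout-labelled replicate 1 (0.37, 0.0290) or wildtype replicate 1 (0.35, 0.0471).

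Slc9a3r1, the scaffold NHERF1 that anchors apical transporters through ezrin, was a bright member whose groups overlapped. It read 10.80, 11.09, 11.32 and 11.19 against 11.14, 11.04, 11.14 and 11.23, a change of -0.04 with an interval of -0.28 to 0.20. The surface exchangers Slc9a2, Slc9a3 and Slc9a4 were at 3.61, 4.83 and 3.13 in the knockout-labelled arrays, with changes from 0.03 to 0.11.

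Of the 10 Slc26a genes 1 fell and 0 rose (limma, 1 higher at an unadjusted p under 0.05), which is near the 11.7% and 7.84% of all genes and no result about the family. A negative change, called or not, was seen in 9 of the 10 and in 9085 of all 18193 genes. Slc26a2, a sulfate transporter known from cartilage, read 8.23, 7.97, 8.15 and 8.10 against 8.41, 8.49, 8.27 and 8.60 (log2 change -0.33, SE 0.09, adjusted p = 0.0254). The nearest arrays of the groups were 8.23 and 8.27, and the call was lost without knockout-labelled replicate 4 (adjusted p = 0.0587), without wildtype replicate 2 (0.0717) or 4 (0.0706) and with the mean of its probe sets (0.0616).

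Slc26a7, a chloride channel and anion exchanger of acid-secreting cells, turned on a single array. It read 6.16, 4.48, 5.75 and 6.08 in the knockout-labelled arrays and 6.22, 6.08, 6.35 and 6.22 in wildtype. The change was -0.60 with an interval of -1.31 to 0.11 (adjusted p = 0.241), and -0.22 without knockout-labelled replicate 2 (adjusted p = 0.190). Slc26a11, a sulfate transporter and chloride channel, changed by -0.05, and Slc26a6, an oxalate and bicarbonate exchanger, by 0.16 without passing (adjusted p = 0.140) although its groups did not overlap. The other 6 genes had changes from -0.19 to -0.03, at mean levels under 6 log2 units.

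Several falls were seen by more than 1 probe set of the gene. Of the 13 members that fell, 7 had further probe sets, 16 in number, of which 9 were called lower and 0 higher in a limma fit over all probe sets. The 4 brightest probe sets of Atp1b1 gave -1.02, -1.10, -1.24 and -1.29, while the fifth, at 5.80 over all arrays, gave -0.12. The 3 of Slc12a2 gave -0.56, -0.66 and -0.49. Those of Slc4a4 gave -0.60, -0.31, -0.53, -0.52 and -0.12, and those of Car12 gave -1.16, -0.83 and, at 4.11 over all arrays, 0.08. The other 6 members that fell, Slc4a10, Slc4a5, Slc4a2, Slc12a4, Car14 and Car2, rest on 1 probe set each. That of Car14 carries a suffix for shared sequence.

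**Figure D4:**
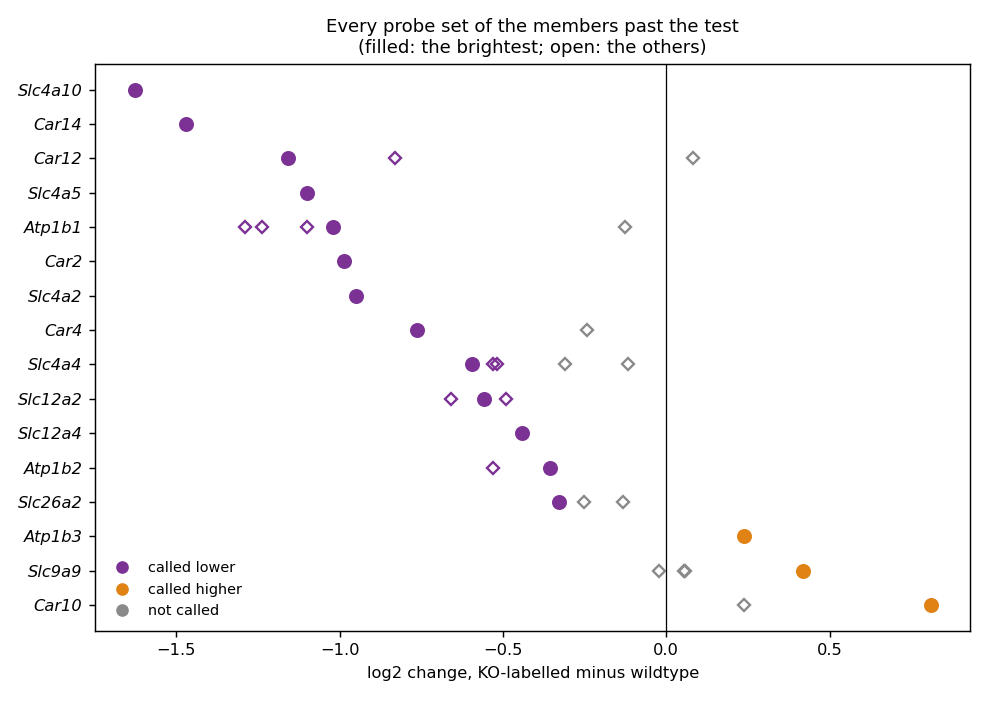
Log2 change (knockout-labelled minus wildtype) of every probe set of the 16 members past the test, with the brightest probe set of each gene filled and the others open, coloured by the call in a limma fit over all probe sets. The 4 brightest probe sets of Atp1b1 lie between -1.29 and -1.02, and the further probe sets of Slc9a9 lie at 0.06 or below.

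The knockout-labelled arrays differed among themselves. Replicate 1 was the lowest of its group in 9 of the 13 members that fell, among them Slc4a10, Slc4a5, Slc4a2, Car14, Car12 and Atp1b1, and in 52.6% of all 2131 genes called lower. Of the fits that left out an array, that without this replicate called the same number of members lower, 13, and 4 higher. Over the 13 members the median distance from the wildtype mean was -1.03 in replicate 1, -0.85 in replicates 2 and 3 and -0.996 in replicate 4, and it lay between -0.04 and 0.06 in the wildtype arrays.

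Genes that work beside these transporters were read from a list of 29, of which 28 were measured: 12 fell, 2 rose and 14 did not pass, with a median change of -0.19. That is 12 of 28 lower where 11.7% of all genes were, and 16.8% of genes above the median gene level. The list was chosen with earlier results of these data known, so this comparison is a description and no independent test. Of the 12, 3 (Aqp1, Kcnj13 and Clic6) are also in the epithelial marker list. Of the channels, 6 of 10 were lower and 1 higher. Aqp1, the water channel of the membrane facing the ventricle, read 11.28, 11.50, 11.32 and 11.42 against 12.40, 12.41, 12.32 and 12.43 (log2 change -1.01, adjusted p = 1.66e-05). The potassium channel genes Kcnj13 and Kcne2 changed by -0.92 and -0.83, the chloride channel protein Clic6 by -0.74 and the cation channel Trpv4 by -0.81. Cftr, the chloride channel of many secretory epithelia, changed by -0.74 at a level of 3.44 against 4.19, below the lower quartile of probe set levels (4.33). Clcn2, a chloride channel, rose by 0.68, and its call was lost without knockout-labelled replicate 4 (adjusted p = 0.0539) or wildtype replicate 3 (0.0627).

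Of 6 partners of the sodium pump 1 fell and 1 rose in limma. With 6 genes this is near the 11.7% and 7.84% of all genes and no result about the set. Fxyd1, phospholemman, which tunes the pump, read 10.37, 10.48, 10.82 and 10.61 against 10.88, 10.99, 10.97 and 11.26 (log2 change -0.46, adjusted p = 0.0182, and 0.0528 without knockout-labelled replicate 1). Fxyd6, a relative known from brain and inner ear, rose by 0.55 (adjusted p = 0.00959). Fxyd3 read 8.004 in knockout-labelled replicate 3 and 5.36, 5.43 and 5.03 in replicates 1, 2 and 4, against 4.85 to 5.17 in wildtype. Its change was 0.92 over all arrays and 0.23 without that replicate, and neither passed.

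Of the 9 kinase and scaffold genes of cation-chloride cotransport, 2 fell and 0 rose (limma, also 0 higher at an unadjusted p under 0.05). The shares of all genes were 11.7% and 7.84%, and 1 of these falls depended on the choice of probe set. Sgk1, a kinase that raises ion transport under hormones, fell by 0.88 (adjusted p = 0.000178). Stk39, the kinase SPAK that activates Slc12a2, read 10.41, 10.60, 10.59 and 10.58 against 10.82, 10.88, 10.86 and 10.93 (log2 change -0.32, adjusted p = 0.00636), but it gave 0.12 (adjusted p = 0.565) where probe sets shared between transcripts or genes were left out and -0.15 (adjusted p = 0.177) with the mean of its probe sets. Wnk1, which acts above SPAK, changed by 0.06 with an interval of -0.07 to 0.19, and Oxsr1, the sister kinase of SPAK, by 0.02.

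Of 4 listed bicarbonate and proton partners 3 were measured, and these 3 fell. Over all genes 11.7% were called lower, and 16.8% of genes above the median gene level. Each of the 3 calls was lost in at least 1 setting. Ahcyl1 and Ahcyl2, regulators of sodium-bicarbonate cotransport, changed by -0.26 (adjusted p = 0.0139) and -0.27 (adjusted p = 0.0369). The call of Ahcyl1 was lost without wildtype replicate 2 (adjusted p = 0.0504) and without shared probe sets (0.0590). The call of Ahcyl2 was lost on dropping any of 6 arrays: knockout-labelled replicate 1 (0.0995), 3 (0.0813) or 4 (0.0759), or replicate 1 (0.0596), 2 (0.105) or 4 (0.0786) of the wildtype, and with the mean of its probe sets (-0.05, 0.635). Ezr, the membrane linker ezrin, changed by -0.33 (adjusted p = 0.00534), and by -0.20 with the mean of its probe sets (adjusted p = 0.0772).

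**Figure D5:**
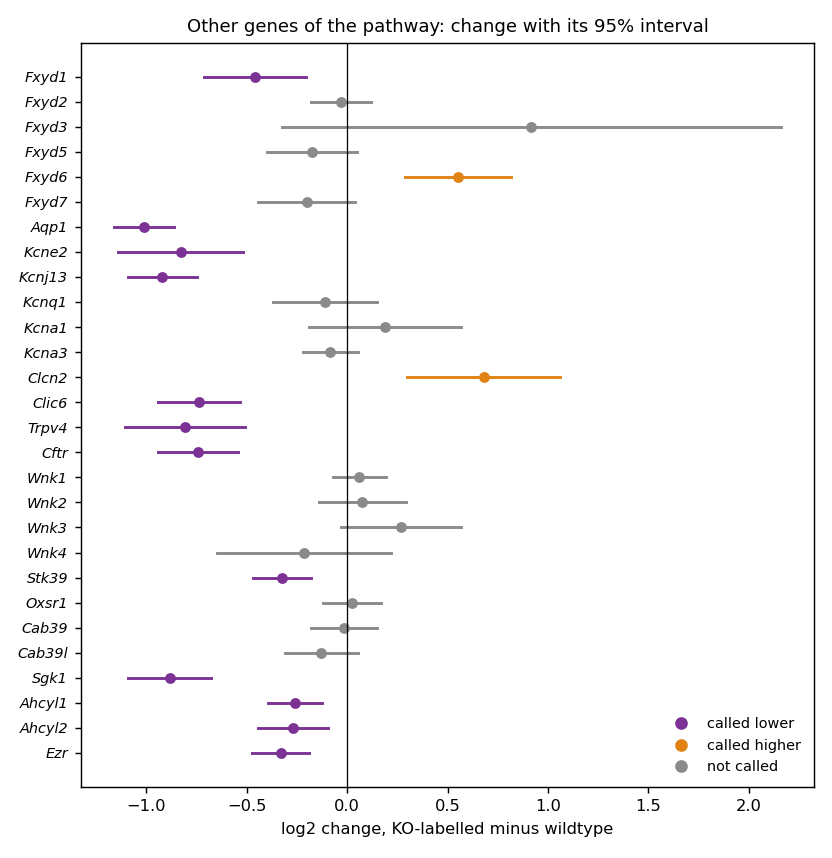
Log2 change (points, knockout-labelled minus wildtype, n = 4 arrays each) of the 28 other genes of the pathway with the unadjusted 95% interval from limma, coloured by the call after adjustment. The channels run from -1.01 for Aqp1 to 0.68 for Clcn2, and the wide interval belongs to Fxyd3.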

How the data were processed

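The authors deposited 1 log2 value for each probe set and array, computed with RMA (submitters' processing notes). This method equalises probe intensities between arrays before it summarises them, so a change in total RNA per cell cannot be seen. No source used here names its software, version or filters. The array has 45101 probe sets: 64 controls, 34945 annotated to 1 gene, 932 to several and 9160 to none. Each of 18193 genes was represented by its brightest probe set, judged by the mean of the 8 arrays. All 58 members had their identifier in the mouse reference gene table.

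Groups were compared with limma 3.58.1 in R 4.3.3 with genotype as the model's single term (lmFit, then eBayes, two-sided tests), and called at a Benjamini-Hochberg adjusted p under 0.05 over all genes. The procedure was tested on simulated data. The samples are labelled as biological replicates, their number limits the precision, and no 2 arrays were identical.

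Same-numbered arrays had correlations across genes of 0.131 to 0.232, above the limit of 0.1 set for pairing. Other pairs ranged from -0.296 to 0.294. Those above the limit were knockout-labelled replicate 3 with wildtype replicate 4 (0.294) and knockout-labelled replicate 4 with wildtype replicate 1 (0.171). All same-numbered pairs thus passed the limit, and these other pairs passed it too. Whether same-numbered arrays share a litter cannot be told from these values. No label ties a number to a litter, so the main fit left the number out and the block was an alternative. The members and lists were chosen with earlier results of these data known. The genes named were every called member, 18 measured genes of a core list of 25 and the called partner genes, with Aqp1, Fxyd1, Stk39 and Wnk1. Other genes were named after their values were seen. Alternatives covered the block, probe set choice, dim genes, array scaling and weights, the variance prior, the threshold and each array left out.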

Additional observations from a re-analysis of the deposited data

Results flagged for a closer look

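In groups of 4 arrays, the gap of the highest or lowest array to its neighbour was set against the group's range, for 87 genes in 174 groups. It passed Dixon's 95% critical value in 6, and about 1 group in 20 does so by chance. Among members that fell, Car14 was at 8.19 in knockout-labelled replicate 1 against 8.68 to 8.73 in the others, and Car2 at 11.22 in knockout-labelled replicate 2 against 10.92 to 10.96. The kinase gene Stk39 was at 10.41 in knockout-labelled replicate 1 against 10.58 to 10.60. Fxyd3, a partner of the sodium pump, was at 8.004 in knockout-labelled replicate 3 against 5.03 to 5.43. Of the members not called, Slc9a8, an exchanger of the Golgi, was at 6.21 in knockout-labelled replicate 3 against 5.90 to 5.92, and Slc4a11 at 5.51 in wildtype replicate 1 against 5.68 to 5.71.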

How the results depend on the processing

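Results were recomputed under 16 other settings at the same threshold, 8 of which left out an array, and at an adjusted p under 0.01. Of the 13 members that fell, 10 were called lower in every setting that tested them. The exceptions were Atp1b2 and Slc26a2, named with their values above, and Atp1b1, whose 4 bright probe sets carry the suffixes left out in a setting that kept its dim one (-0.12, adjusted p = 0.536). That setting did not test Car14, whose only probe set carries such a suffix. The number called lower ran from 11 to 15, and from 11 to 14 in the fits that left out an array. The number called higher was 6 with array weights, 5 with a trended robust prior and 1 at an adjusted p under 0.01, and 1 to 4 in the fits that left out an array. The number was 1 without wildtype replicate 2 and without wildtype replicate 3. Over the whole array 1950 genes were called at 0.01 against 3557 at 0.05, and 2653 to 3934 in the fits that left out an array. Stk39 reversed to 0.12 when probe sets with suffixes that mark shared sequence were dropped.

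With the replicate number as a block, 15 members were lower and 4 higher, and 3653 genes were called. Beside Atp1b3, Slc4a1, Slc9a5, Slc9a3r2 and Car15, the block changed no call among the members and partner genes. Centring arrays on their medians moved the median change of all genes by less than 0.1 and left 13 lower and 3 higher. Signal over background is unknown, which limits what can be said of dim members.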
